A study of Mus musculus with 48 samples.

Results

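The genes described here are 32 transcripts of mitosis and the G2/M phase of the cell cycle, chosen by name from a deposited expression table. They are 32 of the 34617 named rows of that table and 32 of the 11072 genes that reached a mean of 1 TPM (a transcript level corrected for transcript length and library size), so every one of them was measured. The table holds RNA sequencing of 24 clonal mouse ER-Hoxb8 cultures from bone marrow, each sequenced once as a progenitor (labelled GMP cells) and once as a monocyte (labelled monocytic cells), 48 libraries in all. ER-Hoxb8 cells are myeloid progenitors held in an immature, dividing state by an estrogen-dependent form of the homeobox protein Hoxb8, and they mature when its activity is withdrawn. All 48 libraries therefore carry the same transgene, and the labels give one medium with stem cell factor for both states. The labels do not give the time between the states. Clones are numbered 1 to 13 (13 clones) and 15 to 26 (11 clones); the labels do not call these sets batches.

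Entry into mitosis is driven by cyclin-dependent kinase 1 bound to A- and B-type cyclins. The spindle then captures chromosomes through kinetochores, a checkpoint holds the cell until all are attached, and the anaphase-promoting complex (APC/C) with Cdc20 marks cyclin B and securin for destruction. Most of these genes are transcribed late in the cell cycle through promoters with a CCAAT box, bound by NF-Y, and a cell cycle homology region (CHR), bound by the DREAM and MuvB complexes, and they fall when myeloid progenitors leave the cycle to mature.

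The gene starts were searched for these elements because mitotic promoters are known for them. RefSeq windows on GRCm38.p6, from 250 bases before to 50 bases after the annotated start, were matched for 27 of the 32 genes; Ccna2, Aurkb, Tpx2, Kif20a and Foxm1 had no entry. The CHR was searched in the form TTTGAA and in a second form, TTCGAA, which reads the same on both strands. The other search was for CCAAT. Each was searched on both strands, so a match in either direction counts once per gene. A CHR match lay in 21 of 27 windows (77.8%), against 21.7% of 27025 genes with a window. A CCAAT box lay in 22 of 27 (81.5%), against 41.1%, and both lay in 20 of 27 (74.1%), against 8.61%. Among 19 S-phase genes, 4 (21.1%) held a CHR match and 8 (42.1%) an E2F match, whereas 1 of the 27 mitotic genes (3.70%) held an E2F match, against 2.12% of all. The E2F search used the form TTTCCCGC, then the form TTTGGCGC, and last the form TTTCGCGC, on both strands. In the same 19 S-phase genes, 13 (68.4%) held a CCAAT box. Among 42 further mitotic genes with a window, 28 (66.7%) held a CHR match, 27 (64.3%) a CCAAT box and 20 (47.6%) both, shares that lie between those of the members and of all genes. These shares are descriptions, and a match is not a bound site.

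The starts of the first 5 genes by mean level that held both elements upstream, once annotated exon bases were trimmed, are printed 5′ to 3′ on the gene's strand, from chr10:69352939-69353162 (Cdk1, minus strand), chr11:99024190-99024439 (Top2a, minus), chr9:70421555-70421804 (Ccnb2, minus), chr4:118437353-118437593 (Cdc20, minus) and chr2:118597961-118598210 (Bub1b, plus). Each begins 250 bases before the start and stops before the first annotated exon base. Capitals mark both elements: a CCAAT box reads ATTGG when it lies on the other strand, and the first CHR form then reads TTCAAA.
Cdk1: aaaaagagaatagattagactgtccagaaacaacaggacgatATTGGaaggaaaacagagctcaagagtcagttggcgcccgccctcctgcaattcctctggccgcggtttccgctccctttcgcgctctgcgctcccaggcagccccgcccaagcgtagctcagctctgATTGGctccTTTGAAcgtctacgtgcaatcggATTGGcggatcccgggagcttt
Top2a: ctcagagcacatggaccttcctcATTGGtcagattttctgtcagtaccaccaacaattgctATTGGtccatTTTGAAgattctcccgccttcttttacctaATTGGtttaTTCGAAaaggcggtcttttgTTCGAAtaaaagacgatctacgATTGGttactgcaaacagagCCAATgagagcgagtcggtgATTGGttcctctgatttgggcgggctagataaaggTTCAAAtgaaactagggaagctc
Ccnb2: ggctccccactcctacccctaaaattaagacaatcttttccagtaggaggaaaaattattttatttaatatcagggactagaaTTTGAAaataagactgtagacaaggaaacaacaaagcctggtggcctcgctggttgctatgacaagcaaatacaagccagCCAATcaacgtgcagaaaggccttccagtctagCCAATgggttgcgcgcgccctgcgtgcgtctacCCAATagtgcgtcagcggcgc
Cdc20: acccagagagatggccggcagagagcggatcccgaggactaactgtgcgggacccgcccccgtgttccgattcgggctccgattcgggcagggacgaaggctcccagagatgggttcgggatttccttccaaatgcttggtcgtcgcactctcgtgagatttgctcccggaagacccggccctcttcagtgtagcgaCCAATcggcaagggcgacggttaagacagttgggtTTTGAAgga
Bub1b: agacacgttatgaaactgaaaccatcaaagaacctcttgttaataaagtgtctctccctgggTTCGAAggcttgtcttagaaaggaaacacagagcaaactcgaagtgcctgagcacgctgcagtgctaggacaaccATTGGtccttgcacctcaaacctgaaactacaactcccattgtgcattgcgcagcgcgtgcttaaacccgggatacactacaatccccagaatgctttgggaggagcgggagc
Top2a carried 6 CCAAT boxes and 4 CHR matches in its 250 bases, and Cdk1 carried 3 CCAAT boxes and 1 CHR match in its 224. In Cdc20 the CCAAT box and the CHR match lay close together near the start. Cdk1, Ccnb2 and Bub1b each held a further CHR match nearer the start, with first bases at -15, 4 and 40. Those matches lay outside the printed stretches.

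**Figure D1:**
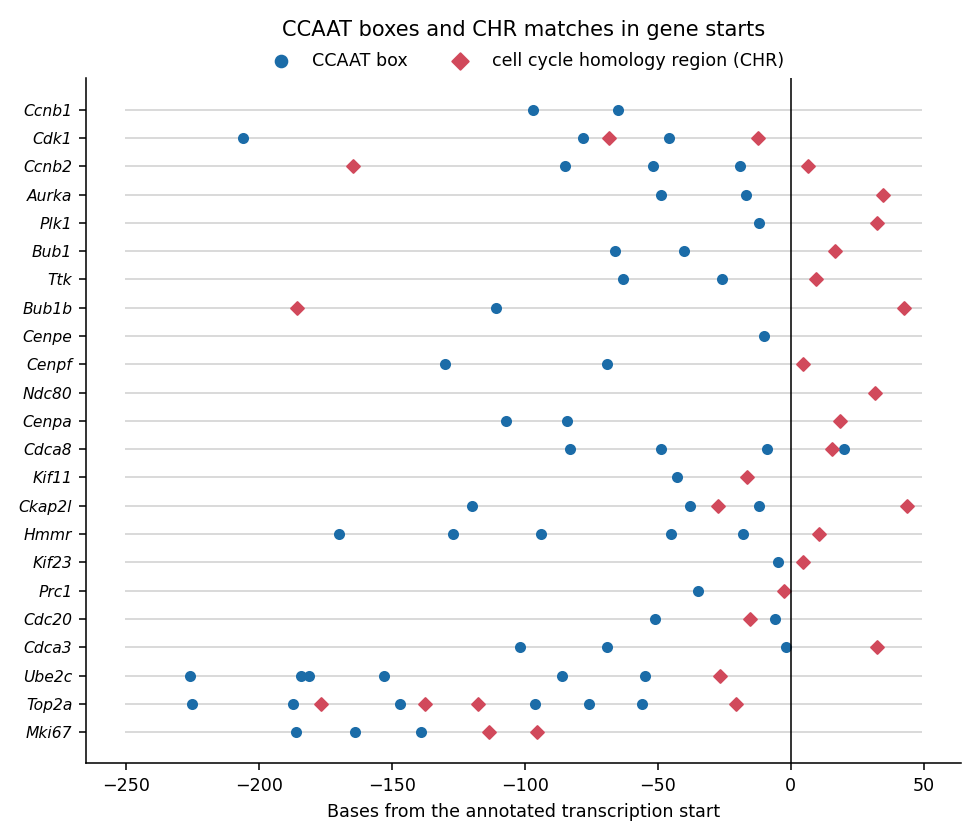
Position of each CCAAT box (circles) and CHR match (diamonds) relative to the annotated transcription start, one row per gene with at least one match; the horizontal axis is in bases and the grey line is the window searched. The 57 CCAAT boxes had a median position of -71 and the 30 CHR matches one of -10. Prc1 has overlapping windows from different starts, so its CCAAT box and CHR match are counted in each. Only its first window is drawn.

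By these medians the CCAAT boxes lay upstream and the CHR matches near the start. In the 250 bases before the start alone, 22 of 27 genes (81.5%) still held a CCAAT box, against 37.5% of all genes. A CHR match lay there in 10 of 27 (37.0%), against 19.6% of all genes.

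Known markers separated the states on average, but the monocyte libraries carried neutrophil as well as monocyte markers. All 7 measured progenitor markers were lower in the monocyte libraries, with Cd34 at 417 ± 147 TPM in progenitors and 6.79 ± 4.22 in monocytes (SD, n = 24), and Flt3 reached at most 0.165 TPM in any monocyte library. Of 9 monocyte markers 8 were higher, and Ccr2 was lower (64.2 ± 35.1 TPM in progenitors and 38.3 ± 37.7 in monocytes, SD). Neutrophil markers were higher in 8 of 8 cases. Their summed level in monocyte libraries ran from 344 to 184553 TPM, with a mean of 69059 against 10756 for the monocyte markers. In progenitor libraries the neutrophil marker sum had a median of 27.4 TPM but reached 10723 in clone 20 and 6082 in clone 21. The states therefore overlapped in this sum. Progenitor marker sums overlapped as well, with 229 TPM in progenitor clone 24 and 336 in monocyte clone 22. The libraries that stood apart were progenitor clone 24 (8240 genes at 1 TPM or more, against 9162 to 11030 in the others), progenitor clone 21 and monocyte clone 26. Mitochondrial transcripts took 5.73 ± 1.44% of progenitor libraries 1 to 13 and 11.97 ± 2.06% of 15 to 26, and predicted genes named Gm took 31.99 ± 2.85% in progenitors against 23.5 ± 3.33% in monocytes. Their part in the results below was not tested except where values without them are given. Read depth is not held in TPM values and is unknown here.

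Mitotic transcripts were lower in the monocytes on average, but modestly and unevenly. The summed level of the 32 genes was 1319 ± 280 TPM in progenitors and 920 ± 433 TPM in monocytes (SD, n = 24). With limma on log2(TPM + 1), blocked by clone and adjusted by Benjamini-Hochberg over all genes, 16 of 32 were lower in monocytes, 0 were higher and 16 did not pass an adjusted p of 0.05. Across all 11072 genes 36.5% passed as lower and 32.4% as higher. The median log2 change was -0.46 for the 32 genes and -0.06 for all genes. In bulk libraries fewer dividing cells and less of each transcript per cell cannot be told apart.

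**Figure D2:**
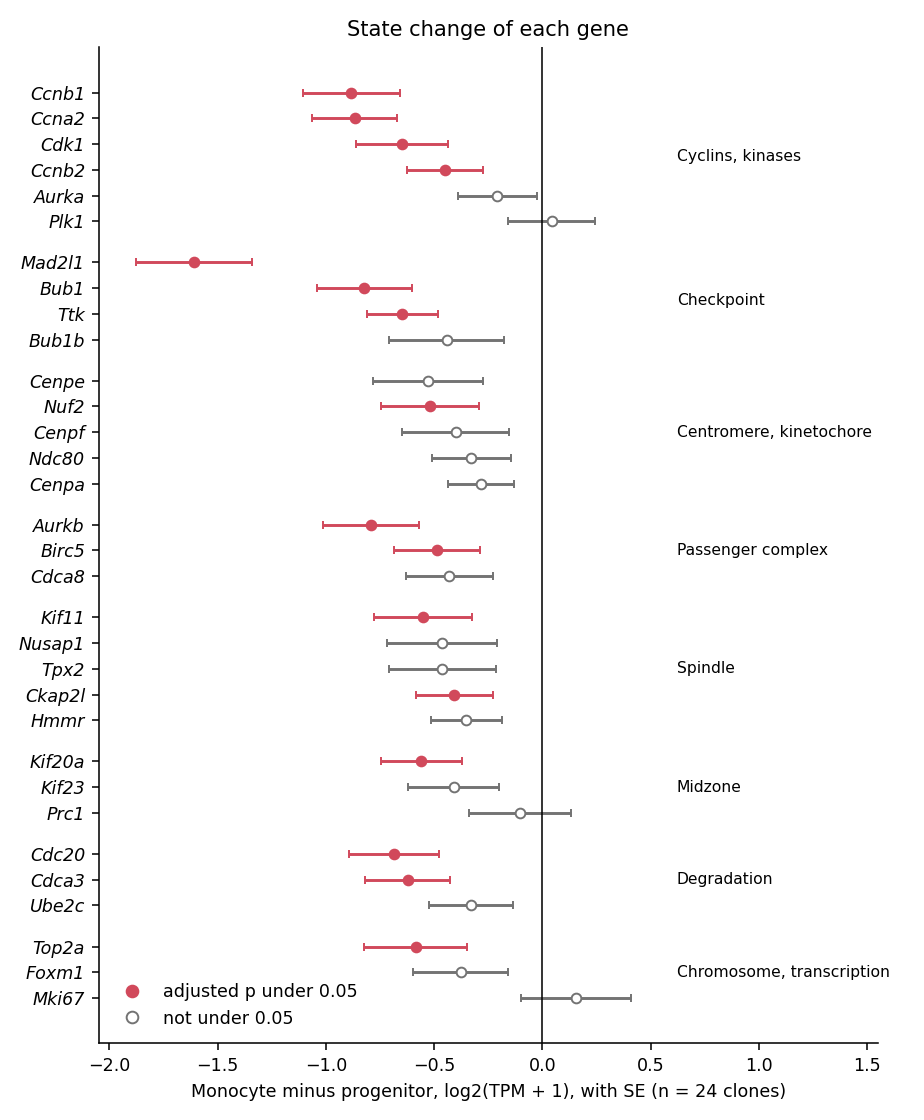
Difference between monocyte and progenitor libraries in log2(TPM + 1) for each of the 32 genes, grouped by role, with its standard error over 24 clones; filled red points passed an adjusted p of 0.05. Only Plk1 and Mki67 lie right of 0, and Mad2l1 at -1.61 lies farthest left.

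The count depended on single clones. Without clone 24, 26 of 32 genes passed as lower (background 39.5%), and without clone 15 the count was 10. Rescaling each library without mitochondrial, Gm and pseudogene entries moved the median of all genes from -0.06 to -0.25, and 29 of 32 then passed as lower, with a median of -0.72 and a background of 45.9%. The 10 genes that passed in every fit that left out one clone were Aurkb, Bub1, Ccna2, Ccnb1, Cdc20, Cdca3, Cdk1, Kif20a, Mad2l1 and Ttk. The share of all genes is not given for passing in every fit or for the fit without clone 15. Neither count of 10 can therefore be read against a background.

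The counts by role that follow stand against 36.5% of all genes lower, and groups of 3 to 6 genes are too small to be ranked by them. Among the cyclins and mitotic kinases 4 of 6 were lower. Ccnb1, the cyclin B1 that partners Cdk1 at mitotic entry, spanned 8.26 to 84.9 TPM in progenitors (median 45.4) and 4.16 to 48.4 in monocytes (median 29.8). Its highest progenitor value was in clone 22 and its lowest in clone 24, and the ranges overlapped. The log2 change was -0.88 ± 0.22 (SE; limma, Benjamini-Hochberg adjusted p = 0.0010), with lower values in 20 of 24 clones. Ccna2 changed by -0.87, Cdk1 by -0.65 and Ccnb2 by -0.45. Plk1, the polo-like kinase that triggers mitotic entry and spindle assembly, spanned 2.71 to 20.8 TPM in progenitors (median 13.3) and 3.33 to 23.4 in monocytes (median 13.8). Its levels overlapped almost wholly, with a change of 0.04 ± 0.20 (limma adjusted p = 0.864) and lower values in 11 clones. Aurka, the centrosomal Aurora kinase, did not pass either (-0.21).

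Of the 4 spindle checkpoint genes 3 were lower. Mad2l1, which encodes the Mad2 inhibitor of Cdc20, had the largest change of the 32. It spanned 36.1 to 357 TPM in progenitors (median 263) and 3.497 to 249.7 in monocytes (median 92.5). The monocyte value was below the progenitor value in 23 of 24 clones although the ranges overlapped. The log2 change was -1.61 ± 0.27 (limma adjusted p = 6.18e-06). Bub1, a kinetochore kinase, changed by -0.82, and Ttk, the kinase that starts checkpoint signalling, by -0.65. Bub1b, which encodes BubR1, spanned 2.47 to 41.8 TPM in progenitors (median 23.5) and 1.81 to 36.6 in monocytes (median 18.5), and its change of -0.44 ± 0.27 did not pass (limma adjusted p = 0.140).

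Of 5 centromere and kinetochore genes 1 was lower. Without clone 24, 5 of 5 were lower (background 39.5%), and likewise after rescaling without mitochondrial, Gm and pseudogene entries (45.9%). This was not particular to the group, as both fits also gave 4 of 4 checkpoint and 3 of 3 passenger complex genes lower. Nuf2, a microtubule-binding Ndc80 complex subunit, changed by -0.52, while its partner Ndc80 (-0.33) and the outer kinetochore protein Cenpf (-0.40) did not pass. Cenpe, a kinetochore motor, spanned 0.939 to 55.4 TPM in progenitors (median 11.8) and 2.61 to 33.6 in monocytes (median 7.56), with a change of -0.53 ± 0.25 (limma adjusted p = 0.0673). Its highest progenitor value was in clone 21 and its lowest in clone 24, both libraries that stood apart. Cenpa, the centromeric histone H3 variant, spanned 41.8 to 157 TPM in progenitors (median 106) and 29.5 to 152 in monocytes (median 85.1). The ranges nearly coincided and the change of -0.28 ± 0.15 did not pass (limma adjusted p = 0.0973).

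In the chromosomal passenger complex, which corrects attachments and drives cytokinesis, 2 of 3 genes were lower. Its kinase Aurkb spanned 9.86 to 60.4 TPM in progenitors (median 41.7) and 3.59 to 56.0 in monocytes (median 24.9). The change was -0.79 ± 0.22 (limma adjusted p = 0.0026), lower in 19 clones. Birc5, which encodes survivin, changed by -0.49. Cdca8, which encodes borealin, spanned 12.7 to 58.5 TPM in progenitors (median 43.2) and 8.72 to 68.1 in monocytes (median 32.4), and its change of -0.43 ± 0.20 did not pass (limma adjusted p = 0.0585).

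Of 5 spindle genes 2 were lower. Kif11, the kinesin-5 motor that separates spindle poles, spanned 1.999 to 22.9 TPM in progenitors (median 11.03) and 1.59 to 20.3 in monocytes (median 7.91), a change of -0.55 ± 0.23 (limma adjusted p = 0.0313). Ckap2l passed with -0.41. Hmmr, a spindle-associated hyaluronan receptor, spanned 0.684 to 12.1 TPM in progenitors (median 7.20) and 1.93 to 10.2 in monocytes (median 5.53), and its change of -0.35 ± 0.16 did not pass (limma adjusted p = 0.0606). The microtubule-associated Tpx2 (-0.46) and Nusap1 (-0.46) had larger mean changes but also did not pass.

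Of the 3 midzone genes, which build the bundle between separating chromosomes, 1 was lower. Kif20a, a cytokinesis kinesin, spanned 1.60 to 14.2 TPM in progenitors (median 10.7) and 1.71 to 14.8 in monocytes (median 6.81), a change of -0.56 ± 0.19 (limma adjusted p = 0.0093) with lower values in 19 clones. Prc1, the microtubule bundler that Kif4 binds, spanned 4.93 to 64.8 TPM in progenitors (median 31.9) and 9.14 to 67.6 in monocytes (median 27.4). It was lower in 12 clones, and its change of -0.10 ± 0.24 did not pass (limma adjusted p = 0.710). Kif23, the centralspindlin motor, changed by -0.41 and did not pass.

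Of 3 genes of mitotic protein degradation 2 were lower. Cdc20, the APC/C activator, spanned 10.1 to 98.8 TPM in progenitors (median 33.5) and 6.09 to 54.7 in monocytes (median 21.2), with the highest progenitor value in clone 21. The change was -0.69 ± 0.21 (limma adjusted p = 0.0048), lower in 20 clones. Cdca3 changed by -0.62. Ube2c, the ubiquitin-conjugating enzyme of the APC/C, spanned 30.4 to 90.9 TPM in progenitors (median 62.9) and 7.09 to 122 in monocytes (median 59.4), and its change of -0.33 ± 0.19 did not pass (limma adjusted p = 0.132).

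Of the remaining 3 genes 1 was lower. Top2a, the topoisomerase that untangles replicated chromosomes, spanned 15.2 to 140 TPM in progenitors (median 77.9) and 9.38 to 108 in monocytes (median 61.9), a change of -0.59 ± 0.24 (limma adjusted p = 0.0319). Foxm1, a transcription factor of G2/M genes, spanned 1.44 to 21.6 TPM in progenitors (median 9.93) and 1.56 to 22.02 in monocytes (median 5.98), and its change of -0.38 ± 0.22 did not pass (limma adjusted p = 0.130). Mki67, which encodes the proliferation marker Ki-67, spanned 1.38 to 27.0 TPM in progenitors (median 12.4) and 2.54 to 33.8 in monocytes (median 13.2). Monocytes were lower in 10 of 24 clones, and the change was 0.16 ± 0.26 (limma adjusted p = 0.597). None of the 32 genes had ranges that stayed apart between the states (background 1.7%), and 5 were lower in at least 20 clones (background 26.6%).

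The change varied widely from clone to clone. The summed monocyte level was between 14.6% (clone 15) and 348% (clone 24) of the progenitor level of the same clone, with a median of 75.6%. It was under 50% in 9 clones, between 50 and 100% in 11 and above the progenitor level in 4, clones 7, 9, 17 and 24. All 32 genes were lower in clones 1, 8, 15, 20 and 26, whereas 1 was lower in clone 9 and 0 in clone 24. In clone 24 it was the progenitor library that was low, at 343 TPM against 936 to 1683 in the other 23, and 30 of 32 genes had their lowest progenitor value there.

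**Figure D3:**
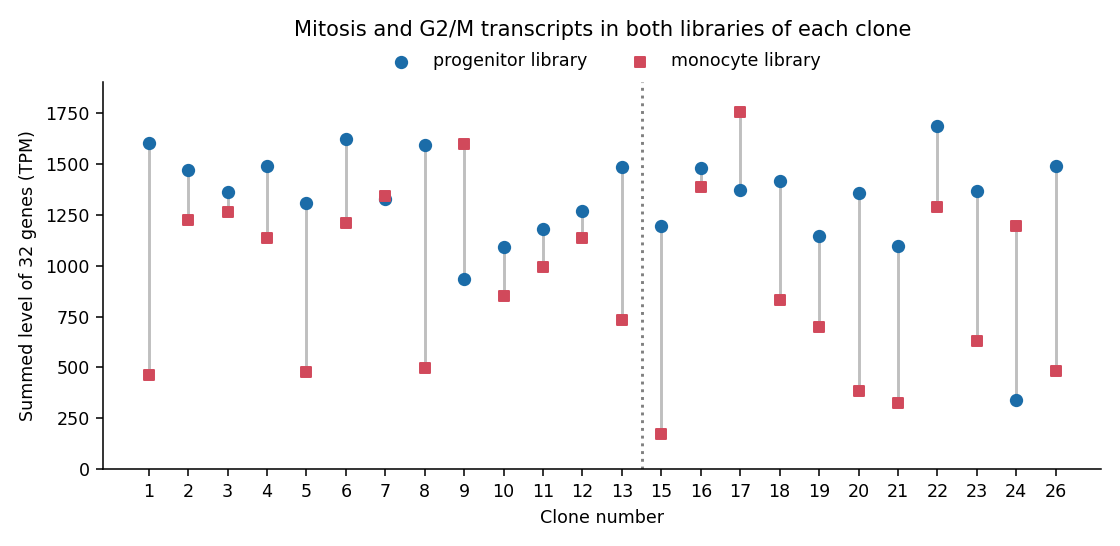
Summed TPM of the 32 genes in the progenitor (circles) and monocyte (squares) library of each clone, joined by a line; the dotted line parts clones 1 to 13 from 15 to 26. Progenitor sums other than clone 24 lie between 936 and 1683, while monocyte sums run from 175 (clone 15) to 1754 (clone 17).

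Monocyte libraries were the more variable. Progenitor sums differed 4.91-fold between extremes, and 1.80-fold without clone 24. Monocyte sums differed 10.0-fold with or without clone 24. The log2 SD was larger in monocytes for 26 of 32 genes, a count with no background given, with a median SD of 0.588 in progenitors and 0.826 in monocytes. Without progenitor clone 24 it was larger for 30 of 32 (background 62.6%), and the progenitor median SD was 0.464. Clone 15 held the lowest monocyte value of 25 genes and clone 17 the highest of 22, with no share of all genes given beside these counts. As many as 7 monocyte sums were under 500 TPM, in clones 1, 5, 8, 15, 20, 21 and 26.

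**Figure D4:**
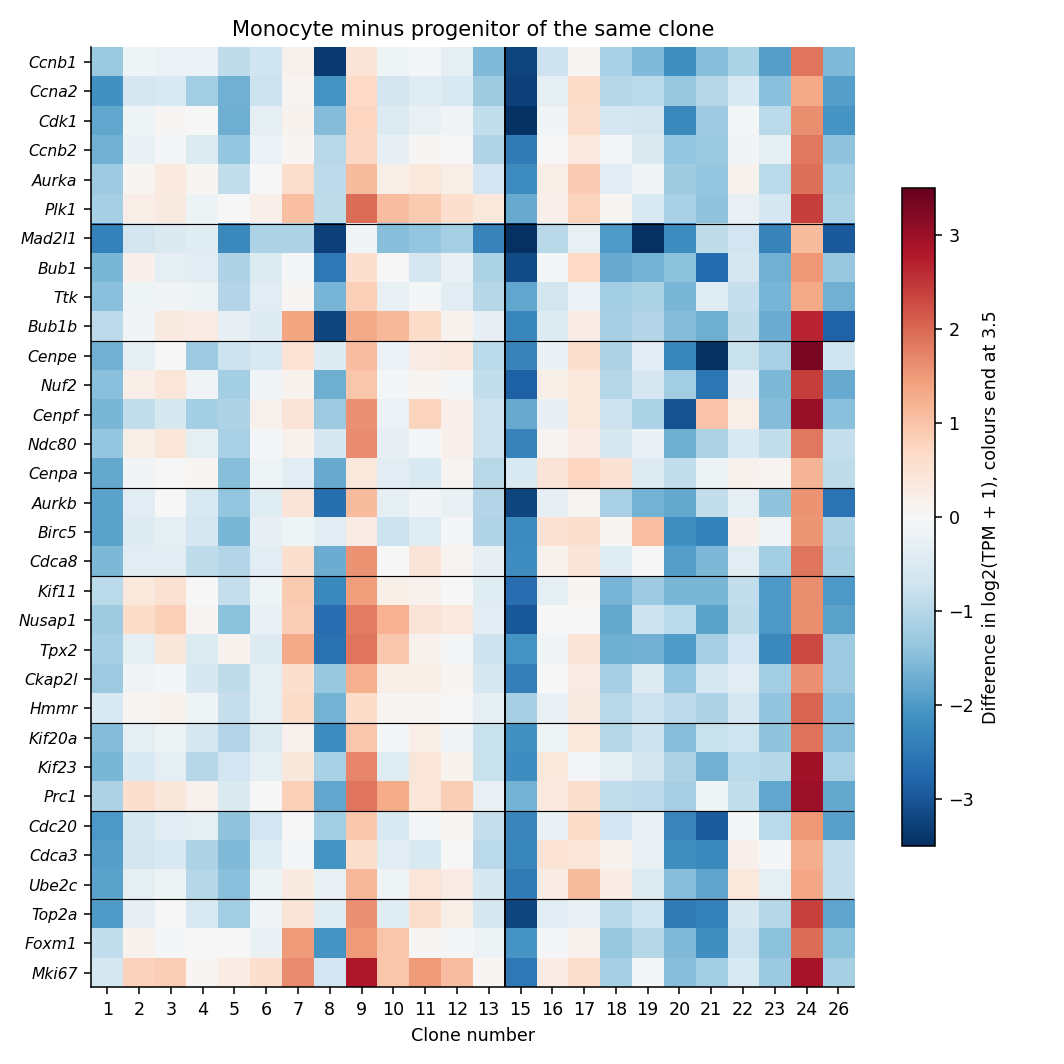
Difference in log2(TPM + 1) between the monocyte and progenitor library of each clone (columns) for the 32 genes (rows, with lines between role groups); blue is lower and red higher in monocytes, and the vertical line parts the sets. Clones 1, 8, 15, 20 and 26 are blue in all 32 genes and clone 24 in none, while clones 2, 3, 10, 11, 12 and 16 are mixed, with 12 to 21 genes lower.

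Across clones the genes rose and fell together in monocytes, and less so in progenitors without clone 24. Over 496 pairs of genes the median Pearson r among the 24 monocyte libraries was 0.8499 (0.248 to 0.977), and it was 0.869 with each set of clones centred. Among progenitor libraries it was 0.731 (-0.397 to 0.967), but 0.511 (-0.820 to 0.966) without clone 24, where 50.8% of pairs were above 0.5. The genes share libraries and scaling, so these values are descriptions. In monocytes Aurka followed the mean of the other members most closely (r = 0.981) and Cenpe least (r = 0.633). In progenitors without clone 24 Kif20a followed that mean most closely (r = 0.963). Birc5 (0.046), Mad2l1 (0.049) and Cenpa (-0.165) did so least. The 10 other genes most like the members, of 7580 with a mean of at least 5 TPM and by the mean r of both states with each set centred, were Kif2c (r = 0.985), Rrm2, Mcm5, Ccnf, Dlgap5, Cdca2, Chaf1a, Atad2, Ncapd2 and Tacc3 (r = 0.939).

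In the monocyte libraries the mean of the 32 genes also tracked other groups. Its r over 24 clones was 0.955 with S-phase genes and 0.842 with the primary granule genes Mpo, Elane, Prtn3 and Ctsg, 4 genes chosen after values had been seen. A second added list, the macrophage genes Gpnmb, Csf1r, Trem2, Apoe and Cd68, gave -0.20. The r was 0.490 with progenitor markers, -0.05 with monocyte markers and -0.24 with neutrophil markers. With lymphoid markers it was 0.469, with erythroid and megakaryocyte markers 0.441 and with mast cell and basophil markers 0.194. With the share of Gm genes it was 0.509 in monocytes and -0.638 in progenitors. No r over all genes is given beside these values. In progenitors the r with the number of genes at 1 TPM or more was 0.836, and 0.745 without clone 24. Their r with progenitor markers was 0.840 (0.749 without clone 24), with lymphoid markers 0.655 (0.573) and with S-phase genes 0.981 (0.951). With the primary granule genes it was 0.404, and 0.154 without clone 24. With the macrophage genes it was 0.344, and 0.456 without clone 24.

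No member had a progenitor level that passed the test of correlation with its monocyte level over clones. Pearson's r between the states of a clone was tested by permutation of 100000 pairings, with Benjamini-Hochberg over 9570 genes. It passed for 0 of 32 members, against 2.18% of all genes. With a background that low, 0 of 32 is not a result particular to the members. At an unadjusted permutation p under 0.05, 1 member passed against 1393 of 9570 genes. By Spearman's rho 4 members did, against 1297 genes. The median r was -0.13 for the members (-0.35 to 0.41, highest for Mad2l1) and 0.13 for all genes. The median was -0.04 without clone 24, -0.43 within clones 1 to 13 and -0.03 within 15 to 26. With the 2 clones farthest from each gene's median left out it was -0.01.

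The sets of clones were then compared. Within clones 1 to 13 alone, 11 of 32 genes were lower in monocytes and 1 was higher (backgrounds 33.2% and 38.9%), with a median of -0.31 against 0.08 for all genes. The higher gene was Mki67 (0.72 ± 0.24, limma adjusted p = 0.0150). Within clones 15 to 26 alone, 10 were lower and 0 higher (27.3% and 17.8%), with a median of -0.74 against -0.22 for all genes. The test of the difference itself, the interaction of state and set, passed with limma for 0 of 32 genes (4 at an unadjusted p under 0.05; background 11.5%), and the lowest adjusted p was 0.0775 for Mki67. Without clone 24 it passed for 10 (Bub1b, Foxm1, Hmmr, Kif11, Mki67, Nusap1, Plk1, Prc1, Top2a and Tpx2; background 27.5%), and without clones 21, 24 and 26 for 3 (Foxm1, Kif11 and Mki67; background 33.1%).

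Among progenitors alone 8 genes differed between the sets (background 39.4%). Mki67, Cenpe, Foxm1 and Top2a were higher in clones 15 to 26 (background 28.5%), and Mad2l1, Cenpa, Ccna2 and Ccnb2 were lower (10.9%). Mki67 spanned 2.45 to 15.4 TPM (median 8.01) in clones 1 to 13 and 1.38 to 27.0 (median 21.1) in 15 to 26, a log2 difference of 1.15 ± 0.32 (limma adjusted p = 0.0068). The 1.38 TPM belonged to clone 24, and the ranges overlapped. Cenpa spanned 103 to 157 TPM (median 126) in clones 1 to 13 and 41.8 to 88.1 (median 68.4) in 15 to 26, so its ranges did not overlap, with a difference of -0.98 ± 0.13 (limma adjusted p = 3.31e-06). Mad2l1 had medians of 302 and 188 TPM, a difference of -1.04 ± 0.25 (limma adjusted p = 0.0019). Without clone 24, 17 genes differed (background 55.5%), 13 higher (44.4%) and 4 lower (11%), and without clones 21, 24 and 26, 24 differed (67.5%), 18 higher (55.6%) and 6 lower (11.9%). Among monocytes 0 differed (4 at an unadjusted p under 0.05 with limma; background 7.11%).

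**Figure D5:**
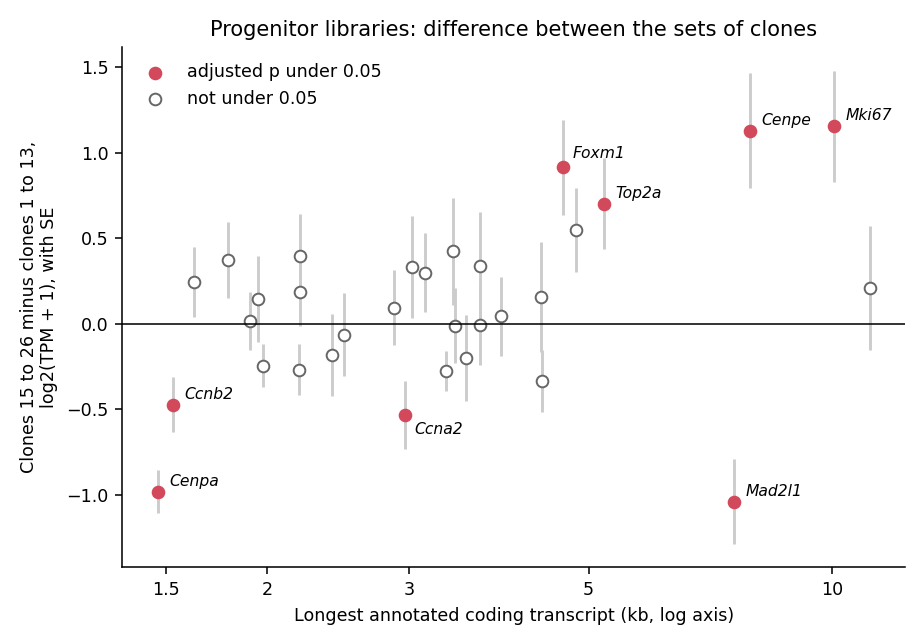
Difference between progenitor clones 15 to 26 and 1 to 13 in log2(TPM + 1), with its standard error, against the length of each gene's longest annotated coding transcript on a log axis; red points passed an adjusted p of 0.05. Mki67, Cenpe, Top2a and Foxm1 lie at the top among longer transcripts, Cenpa and Ccnb2 below 0 among the shortest, and Mad2l1 is low despite its length.

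Transcript length moved with this difference. Across genes, which are not independent replicates, the r between the progenitor set difference and log2 length of the longest coding transcript was 0.4003 over the 32 genes and 0.362 over 9939 genes. With the median over a gene's coding transcripts, the measure computed first, it was 0.454 and 0.300. For the interaction it was -0.470 and -0.321 by the longest transcript and -0.668 and -0.213 by the median one. The longest was preferred after both had been seen, because the median drew on short partial transcripts. The part of length in the set difference was not tested further.

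Other cell cycle lists were set against the same background, 36.5% of all genes lower and 32.4% higher. Of 54 further mitotic genes 27 were lower in monocytes and 2 higher, with a median of -0.36. Cks1b, a Cdk1 subunit (-1.63), and Trip13, which remodels Mad2 (-1.57), fell most. Pttg1, which encodes securin, rose by 0.88 on the log2 scale, from 16.6 ± 10.8 to 31.4 ± 17.99 TPM (SD, n = 24), and Mis12, a kinetochore subunit, by 0.63. Of 8 condensin subunits 2 were lower, Ncapd2 (-1.16) and Ncaph2 (-0.39), a share below the background in this fit only. Without clone 24, 5 of 8 were lower (background 39.5%). After rescaling without mitochondrial, Gm and pseudogene entries 7 of 8 were (45.9%). Of 15 APC/C core genes 8 were lower, led by Cdc16 (-1.07) and Anapc5 (-0.97), and Anapc2 was higher (0.58). Of 15 genes of the DREAM, MuvB and NF-Y complexes 7 were lower, led by Tfdp2 (-1.58) and Mybl2 (-1.28), and Lin37 was higher (0.28). The median of that list was -0.31. None of these list counts was tested against the background.

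S-phase genes had the lowest median of these cell cycle lists. Of 23, 17 were lower and 0 higher, with a median of -0.94 against -0.46 for the 32 mitotic genes, a difference between lists that was not tested. Mcm7 (-1.79) and Mcm6 (-1.72), subunits of the replicative helicase, fell most. The summed S-phase level in monocytes had a median of 56.1% of the progenitor level of the same clone, against 75.6% for the mitotic genes.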

How the data were processed

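RNA sequencing libraries of 24 ER-Hoxb8 clones in both states were made from total RNA. The authors deposited one table of TPM values (transcript abundance scaled to a fixed total within each library), made with Salmon on mm10 per the submitters' processing notes; versions and filters are not stated there. Of 34643 rows, 26 with date-like names were left out. Sums were 982949 to 999250 per library. TPM keeps no read depth.

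State was tested with limma 3.58.1 (R 4.3.3, trend) on log2(TPM + 1), so changes of low genes are understated, for genes with a mean of at least 1 TPM, with clone as a block and Benjamini-Hochberg adjustment. The pairing comes from the clone numbers in the labels; deviations of a clone's 2 libraries correlated above 0.1 in 18 of 24 clones, and in 12 of 24 with each set of clones centred. State by set of clones, and the sets within each state, were fitted likewise. Each clone is 1 library per state. The p-values of state and of its interaction therefore measure how the within-clone difference spreads over clones, with library noise included. Those of the sets within a state measure the spread between clones. The scripts were tested on simulated data.

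The correlation test used genes with a mean of 1 TPM or more in each state and a log2 SD of 0.25 or more in each, 9570 genes. A first run had applied the mean over all 48 libraries (10473 genes, 292 passing); it was replaced by the design's wording after its result had been seen. Transcript lengths came from GENCODE on GRCm38, promoters from RefSeq. All 32 genes are named; in each role group the largest and smallest change, with Mki67, Ccnb1 and Foxm1, have ranges, and other lists the 2 largest passing changes per direction. Alternatives were the pseudocount (0.1 and 5), the filter, the block, the trend, rescaling, each set alone and clones left out. Leaving clone 24 out of the correlations between members, the primary granule and macrophage genes and transcript length were added after the data were seen. The members and lists were chosen with earlier results of these data known.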

Additional observations from a re-analysis of the deposited data

How the results depend on the processing

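The count of members lower in monocytes (16) was 29 after rescaling without mitochondrial, Gm and pseudogene entries and 10 in clones 15 to 26 alone. Members higher numbered 1 in clones 1 to 13 alone. Leaving out one clone at a time gave 10 to 26 members lower, 0 to 0 higher, 24 to 32 other mitotic and 16 to 19 S-phase genes lower, and 7453 to 7852 genes changed. It gave 0 to 10 members and 722 to 3046 genes with an interaction, and 6 to 17 members differing between sets in progenitors and 0 to 2 in monocytes. Genes changed numbered 5053 in clones 15 to 26 alone, and other mitotic genes lower 14 in clones 1 to 13 alone. Without clones 21, 24 and 26 the interaction counted 3 members and 3653 genes and the progenitor sets 24 members; a filter of 5 TPM left 680 genes with an interaction. Genes correlated between states (209) numbered 17 with sets centred, 453 without clones 21, 24 and 26, 102 by Spearman's rho and 292 with the mean taken over all libraries. The median progenitor r between members was 0.511 without clone 24. Members with a CHR match numbered 10 of 27 in the 250 bases before the start (background 19.6%). The cause of these shifts was not tested.

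Signs reversed for Cenpa (0.024) and Plk1 (-0.31) and Mki67 (-0.51) in clones 15 to 26 alone, Foxm1 (0.046), Nusap1 (0.023) and Prc1 (0.21) in clones 1 to 13 alone, and Plk1 (-0.19) and Mki67 (-0.061) after rescaling. Plk1 ran from -0.062 (without clone 24) to 0.12 when one clone was left out. Without the pairing (no replicate block) 17 members were lower. TPM values without read depth limit what can be said of the lowest levels.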
